A study of Canis lupus familiaris with 7 samples.

Results

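The cytosolic ribosomal protein genes of canine osteosarcoma (OSA) tumor and non-tumor bone were compared. Members were taken by symbol: *RPSA*, the *RPLP* genes, and *RPL* or *RPS* followed by digits and at most the letters A, X, Y or L, which leaves out the ribosomal protein kinases and the mitochondrial ribosomal proteins. The rule found 83 gene rows with 64 symbols among the 24580 rows of the expression table. Of these, 62 rows with 52 symbols had a mean of at least 1 FPKM (fragments per kilobase scaled by the mapped fragments of the sample, so a level per transcript length) over the 7 samples and were tested. Of the 21 rows left out, 10 were listed at 0 in every sample and 11 were low. *RPL10*, *RPL11* and *RPLP2* were not analysed here.

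RNA was sequenced from 3 tumors labelled as osteosarcoma (T1, T3 and T10) and from 4 pieces of grossly non malignant bone (N1, N3, N8 and N9). The labels name no treatment. Tissue was taken at amputation or after euthanasia, and the non-tumor pieces came from bone next to a tumor, so they are not bone of healthy dogs. Age and breed were not used here. Both groups hold samples numbered 1 and 3, and the study speaks of matched non-tumor tissue taken next to the tumor, but neither it nor the labels say that a number marks 1 dog or that samples of a group are separate dogs, so p-values measure the spread between these samples.

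Ribosomal proteins assemble with ribosomal RNA in the nucleolus into a small subunit, which reads the mRNA, and a large subunit, which forms peptide bonds. Their mRNAs are among the most abundant of a cell and carry a 5′ terminal oligopyrimidine tract, through which mTORC1 and LARP1 control their translation. Several members also have roles outside the ribosome, and many of their genes host small nucleolar RNAs (snoRNAs) in introns and have left processed copies elsewhere in the genome.

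Depth per sample was not known as counts, since only FPKM was available and the study gives only an approximate read number for all samples. The smallest steps between low values put the fragments behind 1 FPKM between 0.541 (N8) and 1.44 (T10) times those of N1. The summed FPKM of a sample ranged from 539648 (N1) to 1752340 (N8), and 1 row of 83 bases (ENSCAFG00000030140) held between 0.0885% (N9) and 47.3% (T1) of that sum. The non-tumor pieces carried markers of other tissues. Summed FPKM of 9 skeletal muscle markers was 74.7 to 82252 in non-tumor and 5.07 to 8.05 in OSA tumor, and 8 of the 9 passed the threshold as lower. Erythroid markers, 9 genes of which 6 passed as lower, summed to 7.75 to 5114 against 3.67 to 83.0 FPKM. All 6 granulocyte markers passed as lower, with sums of 334 to 25586 against 10.3 to 529 FPKM. In the tumors *TNNT3* (T1), *SLC4A1* (T1 and T3), *HBM* (T1) and *CTSG* (T10) were listed at 0. Osteoblast markers, of which 1 of 9 passed as higher, summed to 162 to 7471 FPKM in non-tumor and to 1962 to 12761 FPKM in OSA tumor. Chondrocyte markers, of which 3 of 7 tested passed as higher, summed to 11.1 to 243 against 141 to 887 FPKM, and endothelial markers, of which 2 of 6 passed as lower, to 66.2 to 309 against 24.1 to 86.8 FPKM. The lists did not all follow the groups: N1 lay within the range of the tumors in its erythroid, granulocyte, osteoblast, chondrocyte and endothelial sums. N8 did so in its endothelial sum. Their part in the results below was not tested. In bulk tissue, fewer cells of a type and less RNA per cell cannot be told apart.

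The members were expressed far above other genes. Of the 62 tested members, 20 had a mean over the 7 samples of at least 1000 FPKM, 28 lay between 100 and 1000, 8 between 10 and 100, and 6 between 1 and 10. Only 96 of all 13507 tested genes, 0.711%, reached 1000 FPKM. The highest row was an *RPL27A* row on chromosome 24, in an interval of 70945 bases shared with another gene, with 2745, 2757, 2231 and 1526 FPKM in N1, N3, N8 and N9 and 1370, 5040 and 1985 FPKM in T1, T3 and T10. *RPS18*, of the head of the small subunit, stood at 2990, 2049, 2111 and 1907 FPKM in non-tumor and at 1031, 2772 and 3060 FPKM in OSA tumor. *RPL13A*, a large subunit protein, stood at 2716, 1873, 2965 and 1554 FPKM against 1166, 3553 and 1538 FPKM. In all 3 genes the tumor range enclosed the non-tumor values, with T1 the lowest sample.

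The lowest members above 0 were *RPL7A*, listed at 0 in 6 samples and at 0.0841 FPKM in T10 in a row of 710 bases without the neighbours of this gene in RefSeq, *RPL10L*, a paralog of the large subunit gene *RPL10* at 0.132 FPKM in T1 and 0.0900 in T10, and an *RPL26* row on chromosome 24 with at most 0.234 FPKM (T1). Small subunit rows had a median level between 324 (N9) and 1490 FPKM (T3), and large subunit rows between 135 (N9) and 560 FPKM (T3). The ratio of the summed FPKM of small to large subunit rows stayed between 1.16 and 1.27 in the 7 samples.

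**Figure D1:**
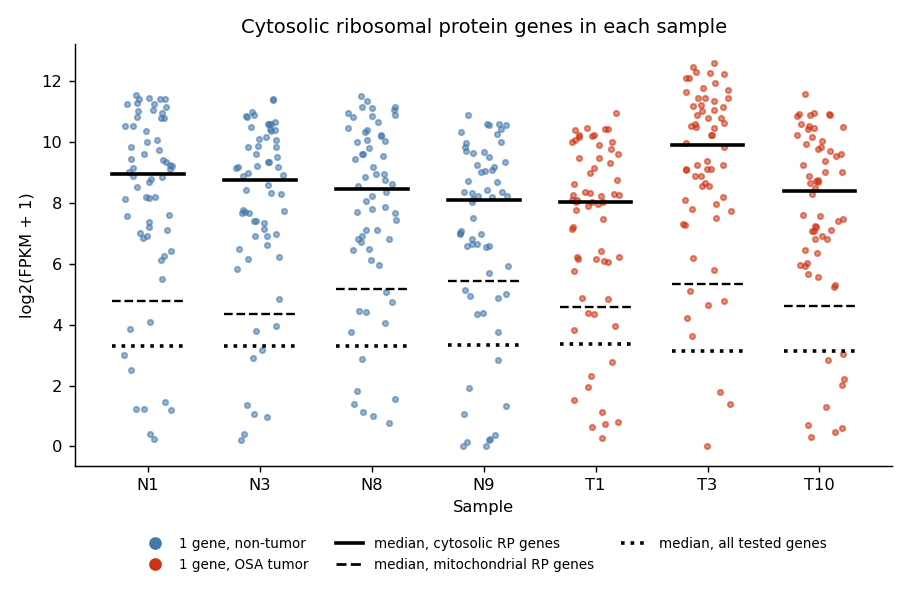
Each point is 1 of the 62 tested cytosolic ribosomal protein genes, as log2(FPKM + 1) on the y axis, in the sample given on the x axis (blue, non-tumor; red, OSA tumor). Solid, dashed and dotted lines are the medians of these genes, of 61 mitochondrial ribosomal protein genes and of all 13507 tested genes; the solid line is highest in T3 (9.90) and lowest in T1 (8.04), while the dotted line stays between 3.14 and 3.35.

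The level of the members differed more between single samples than between the groups. Their median was 498, 430, 353 and 271 FPKM in N1, N3, N8 and N9 and 261, 958 and 337 FPKM in T1, T3 and T10. T3 stood above every other sample and T1 below every non-tumor sample, so both extremes were tumors on this scale. Over all tested genes the median stayed between 7.81 (T3) and 9.23 FPKM (T1), with T3 the lowest.

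T3 was the highest of the 7 samples for 50 of the 62 tested members, 80.6%, against 17.5% of all tested genes. The lowest sample was N9 for 30 members and T1 for 24, and 1 of these 2 samples was lowest for 54 members, against 28.0% of all tested genes. T3 was highest with T1 or N9 lowest in 45 members (6.96% of all tested genes). The median member stood in T3 at 2.30 times, in T10 at 0.856 times and in T1 at 0.631 times its non-tumor mean. For all tested genes these ratios were 0.775, 0.783 and 0.872. The median ratio of T3 to T1 over the members was 4.04.

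The count of members highest in T3 depended on the scaling of the samples. It was 35 of 62 with every sample rescaled to the same summed FPKM (10.9% of all tested genes) and 27 of 62 after quantile normalization (17.6% of all). It stayed at 50 after median ratio scaling (18.8% of all), which moved the values little. There the median of the members went from 958 to 1012 in T3 and from 498 to 505 in N1. With the same sum, the median of the members was 909 in N1 and 1046 in T3, and after quantile normalization 703 in N1 and 723 in T3, so N1 came close to T3 on both scales. The lowest median was then that of a non-tumor sample, N8 with the same sum (198, against 230 in T1) and N9 after quantile normalization (198, against 359 in T1). T3 was the sample in which the most members peaked on all 4 scales.

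**Figure D2:**
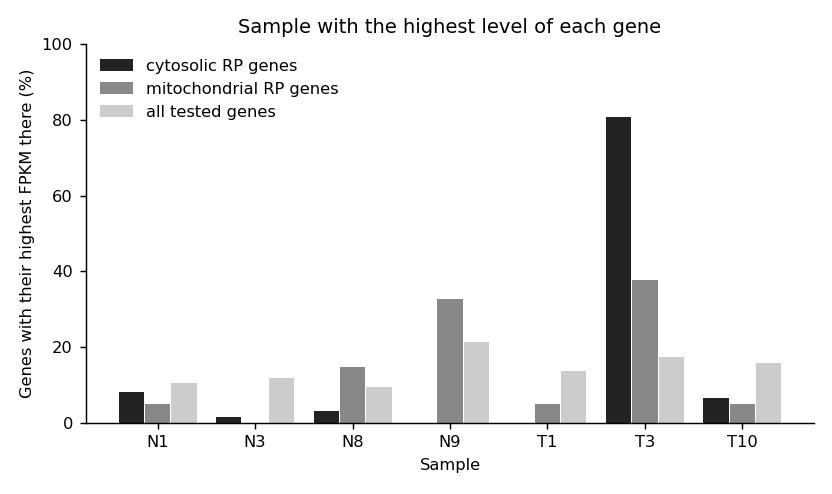
Bars give the percentage of genes whose highest FPKM of the 7 samples (x axis) lies in that sample, for 62 cytosolic ribosomal protein genes (black), 61 mitochondrial ribosomal protein genes (dark grey) and 13507 tested genes (light grey). The black bar reaches 80.6% in T3 and is 0 in N9 and T1.

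The mitochondrial ribosomal proteins, encoded in the nucleus and built into the ribosome of the mitochondrion, shared the order of the tumors but not that of the non-tumor samples. Of 61 tested rows, 23 were highest in T3 (37.7%, against 17.5% of all tested genes) and 20 in N9. Their median was 26.2, 19.6, 35.1 and 42.4 FPKM in N1, N3, N8 and N9 and 23.1, 39.3 and 23.5 FPKM in T1, T3 and T10. N9, among the lowest samples for the cytosolic members, was the highest for the mitochondrial ones. The median mitochondrial row stood at 1.21 times its non-tumor mean in T3, 0.768 times in T10 and 0.678 times in T1. Whether the cytosolic and mitochondrial rows differ in T3 could not be tested, as T3 is 1 sample.

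The spread within the groups followed the same samples. On the log2(FPKM + 1) scale the median SD over the members was 1.12 among the 3 OSA tumors and 0.57 among the 4 non-tumor samples, and 51 of the 62 members varied more among the tumors. Over all tested genes these medians were 0.71 and 0.72, and 50.0% varied more among the tumors.

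**Figure D3:**
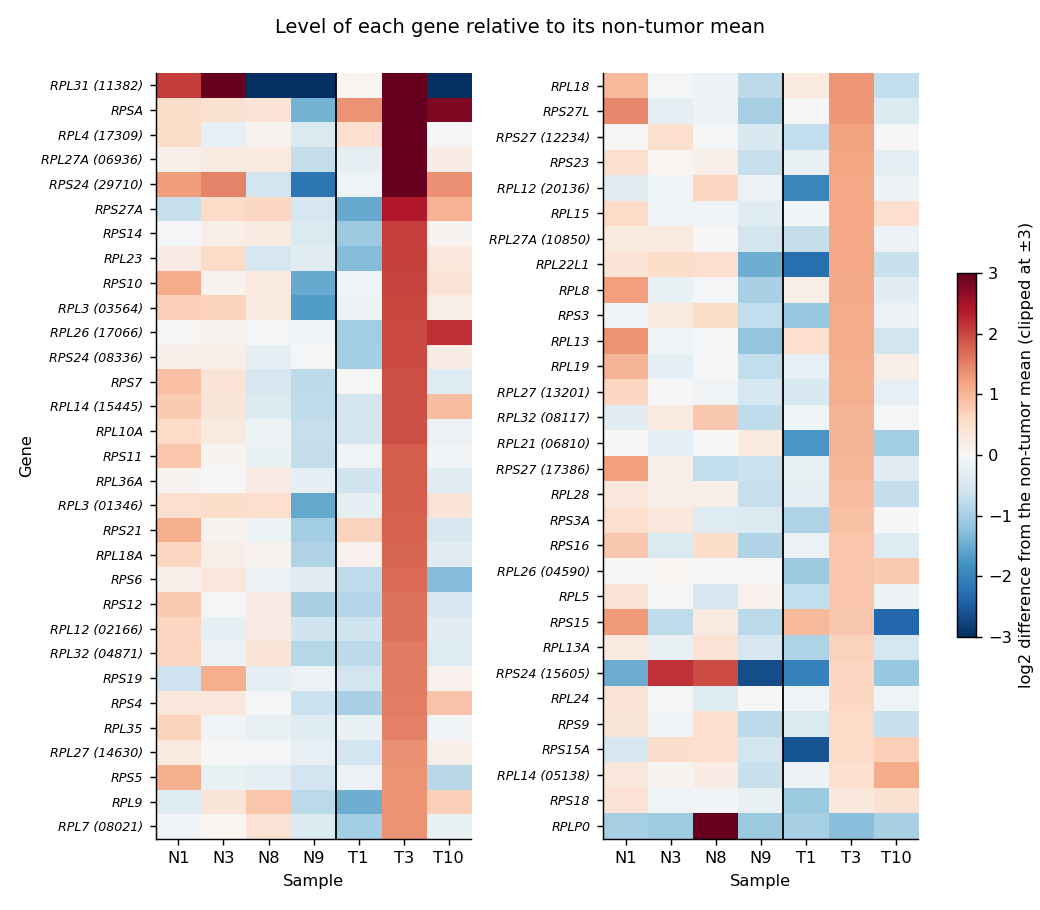
Each row is 1 of 61 tested genes (1 is not drawn) and each column 1 sample (non-tumor left of the line, OSA tumor right), with the color giving the log2 difference from the gene's non-tumor mean, clipped at ±3, and rows ordered by T3. Symbols with more than 1 row carry the last digits of the gene ID. The T3 column is red in nearly all rows, the T1 and N9 columns are mostly blue, and *RPL31*, *RPLP0* and the *RPS24* row with the known neighbours (right panel) break the pattern.

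The main comparison asked which members differ between OSA tumor and non-tumor bone. By limma on log2(FPKM + 1), with a log2 fold change of at least 1 and an unadjusted p under 0.05 as threshold, 1 of the 62 tested members, *RPSA*, was higher in OSA tumor, against 3.28% of all tested genes. None was lower in OSA tumor, against 3.58% of all. *RPSA* was also the only member with an unadjusted p under 0.05, and no member and no other gene had a Benjamini-Hochberg adjusted p under 0.05 (the smallest was 0.693 in limma). Every tumor sample lay above every non-tumor sample in 1 member (3.04% of all tested genes) and below in none (2.81% of all).

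The other members did not pass the threshold, and their errors were wide. Over the 62 members the median log2 fold change was 0.29, with quartiles of -0.00 and 0.51, beside -0.02 over all tested genes and -0.04 over the mitochondrial ribosomal proteins. It was 0.16 for small and 0.29 for large subunit rows. Of the members 46 (74.2%) had a positive fold change, against 48.6% of all tested genes. The median SE was 0.75, larger than the median fold change itself.

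The direction of the median rested on single libraries. Without T3 it was -0.28, and without T1 it was 0.62. It was 0.03 without N9, and 0.46 with the samples rescaled to the same sum, where the median of all tested genes also moved, to 0.12, 0.34 below it.

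**Figure D4:**
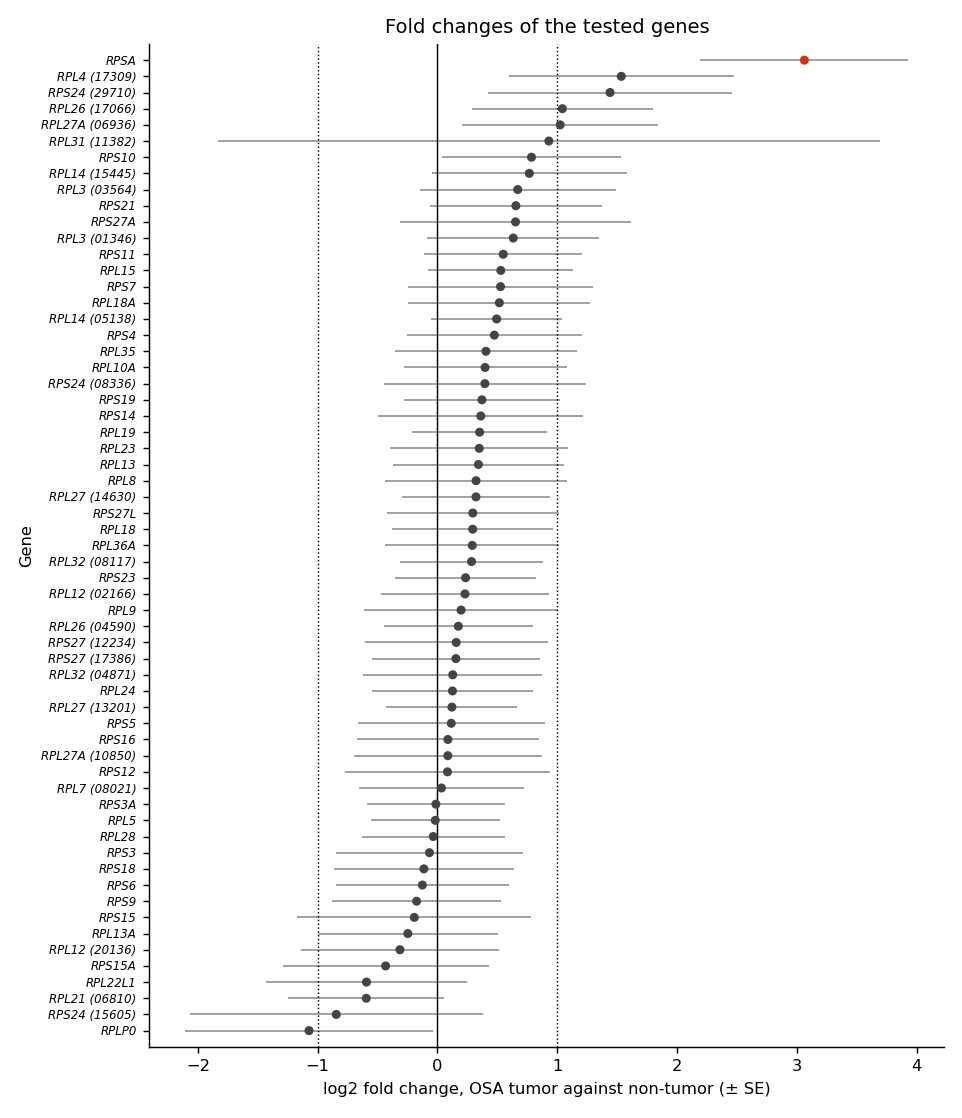
Points are the log2 fold changes of 61 of the 62 tested genes (y axis; 1 is not drawn), OSA tumor against non-tumor, with their SE as bars; dotted lines mark log2 fold changes of -1 and 1. *RPSA* (red) passed the threshold, and all but 6 of the genes lie between the dotted lines.

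*RPSA* encodes a small subunit protein that is also known as the laminin receptor of the cell surface. Its row lies at chr23:9070953-9077058 (CanFam3.1), an interval that also lists 2 *SNORA62* rows. Its level was 7.04, 6.57, 6.28 and 1.07 FPKM in N1, N3, N8 and N9 and 13.1, 181 and 37.1 FPKM in T1, T3 and T10. The groups did not overlap, and the lowest tumor, T1, stood close to the highest non-tumor sample. The mean was 5.24 ± 2.80 FPKM in non-tumor (SD, n = 4) and 77.0 ± 90.7 FPKM in OSA tumor (SD, n = 3).

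*RPSA* was higher in OSA tumor by a log2 fold change of 3.06 (SE 0.87, unadjusted limma p = 0.00602, adjusted p = 0.693), and the two-sided exact permutation test gave p = 0.0571, the smallest that the 35 splits allow. T3 set much of its size: without T3 the log2 fold change was 2.07, still past the threshold, and without T1 it was 3.92. With the sample number as a fixed block, a fit that kept only N1, N3, T1 and T3, the log2 fold change was 2.70. It did not pass the threshold there. Of the *SNORA62* rows in its interval, 1 was listed at 0 in every sample and the other stood at 5.38, 0, 28.9 and 0 FPKM in non-tumor and at 0, 6.83 and 25.2 FPKM in OSA tumor. The host gene and the snoRNA row did not rank the samples alike. *RPSA* was low for a member, with a mean of 36.0 FPKM over the 7 samples where the median member stood at 261 FPKM or more in each. Processed copies of this gene are common in mammals; how the authors' pipeline placed fragments that match several copies is not given in the sources used here.

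Of the members other than *RPSA*, 5 differed by a log2 of 1 or more between the groups and did not pass the threshold. The *RPL4* row on chromosome 30, a large subunit gene, was at 1.29, 0.324, 0.694 and 0.168 FPKM in N1, N3, N8 and N9 and at 1.20, 26.7 and 0.528 FPKM in T1, T3 and T10. The high value was that of T3 alone (log2 fold change 1.54, exact permutation p = 0.286; 0.23 without T3). The *RPL27A* row on chromosome 21 had the same form, with 17.8 FPKM in T3 and 0.283 to 1.61 FPKM in the other samples. Its log2 fold change was 1.02 and turned to -0.04 without T3.

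*RPL26*, whose protein sits near the exit of the peptide tunnel, had its row with introns on chromosome 5. It stood at 13.5, 14.4, 12.6 and 12.5 FPKM in N1, N3, N8 and N9 and at 5.86, 55.1 and 64.2 FPKM in T1, T3 and T10. The non-tumor samples were nearly equal, and 2 tumors lay above and 1 below them. The log2 fold change was 1.04 (exact permutation p = 0.286); without T1 it was 2.09 and past the threshold, and without T3 or T10 it fell to 0.57 or 0.47. The *RPL26* row on chromosome 20, of 438 bases, stood at 290 to 313 FPKM in non-tumor and at 139, 537 and 520 FPKM in T1, T3 and T10, so T1 was again the lowest sample.

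The remaining pair with large fold changes was an *RPS24* row on chromosome 8 and *RPLP0*. *RPS24*, a small subunit gene mutated in Diamond-Blackfan anemia, stood there at 75.2, 88.1, 20.4 and 6.14 FPKM in non-tumor and at 28.0, 271 and 81.4 FPKM in OSA tumor (log2 fold change 1.44, exact permutation p = 0.286). This value ran from 0.62 without T3 and 0.72 without N9 to 2.23 without T1. *RPLP0*, a protein of the stalk that recruits elongation factors and a frequent reference gene of qRT-PCR, stood at 20.9 FPKM in N8, at 0 in T3 and at 0.104 to 0.232 FPKM in the other samples. Its log2 fold change of -1.07 (exact permutation p = 0.571) thus rested on N8. The row keeps the same gene neighbours as *RPLP0* in RefSeq.

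**Figure D5:**
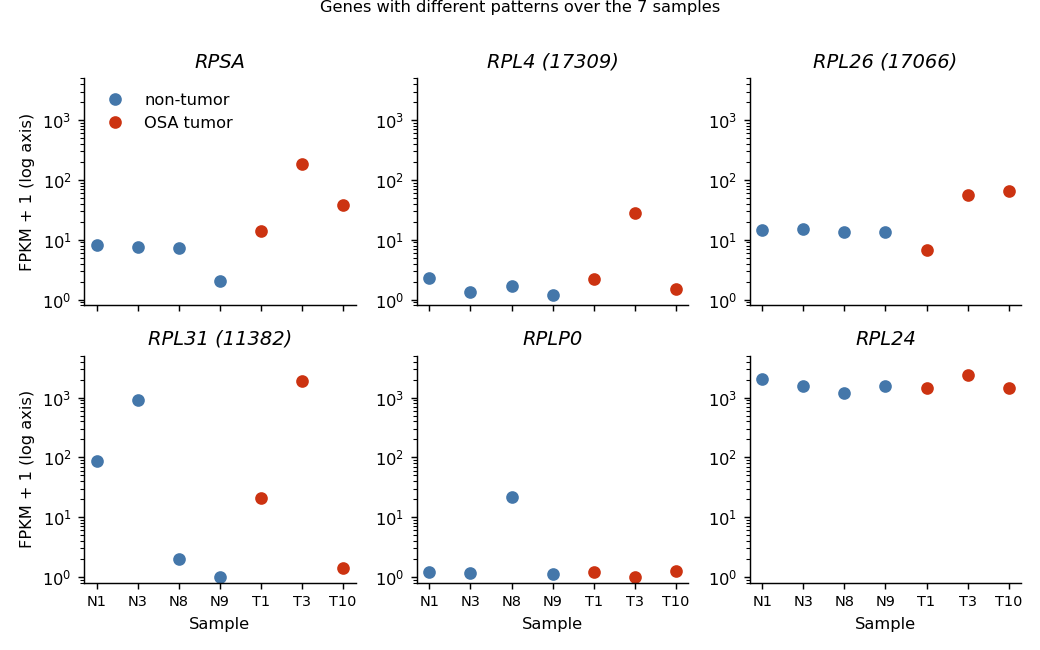
FPKM + 1 on a log axis in each sample (blue, non-tumor; red, OSA tumor) for 6 rows: *RPSA*, without overlap of the groups, *RPL4* and *RPL26* rows high in 1 or 2 tumors, the *RPL31* row on chromosome 32, *RPLP0*, high in N8 alone, and *RPL24*, the member with the smallest spread. Digits in parentheses are the last digits of the gene ID.

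Of members with known roles outside or beside the ribosome and their paralogs, 15 rows other than *RPSA* were tested. Their log2 fold changes ran from -1.07 to 1.04, and none passed the threshold. *RPS6*, the substrate of the S6 kinases, was at 139, 160, 111 and 99.8 FPKM in N1, N3, N8 and N9 and at 73.4, 407 and 50.2 FPKM in T1, T3 and T10. T3 was above all and the other 2 tumors were below all non-tumor samples. *RPL5*, which with *RPL11* forms a particle that binds MDM2, was at 166, 119, 87.7 and 135 FPKM against 73.5, 221 and 112 FPKM, and was among the members with the smallest spread over the samples (SD 0.53 on the log2 scale).

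*RPS4*, on the X chromosome, was at 648, 651, 496 and 328 FPKM in non-tumor and at 261, 1490 and 927 FPKM in OSA tumor. *RPL7*, a large subunit gene, was at 522, 572, 749 and 419 FPKM against 271, 1401 and 478 FPKM. *RPL36A* was at 530 to 774 FPKM in non-tumor, at 2307 FPKM in T3 and at 430 and 516 FPKM in T1 and T10. In all 3 genes T3 was the highest sample and T1 lay below all non-tumor samples, and in *RPS4* T10 also lay above them.

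Of the paralog pairs, *RPL22L1*, the counterpart of *RPL22* that can replace it in the large subunit, was at 128, 140, 137 and 34.4 FPKM in N1, N3, N8 and N9 and at 19.4, 215 and 59.7 FPKM in T1, T3 and T10. N9 and T1 were the low samples. *RPL22* was listed at 0 in every sample, in a row of 466 bases. *RPS27L*, the counterpart of *RPS27*, stood at 678, 202, 225 and 125 FPKM against 251, 611 and 188 FPKM, with N1 highest, in an interval shared with *AP1B1* and unlike its neighbourhood in RefSeq. The row named *RPS19*, of 435 bases, lay at 1.76 to 11.5 FPKM, and its neighbours were not those of *RPS19* in RefSeq.

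The level was most even in 1 abundant member. *RPL24*, of the large subunit, varied least (SD 0.35 on the log2 scale), with 2067, 1543, 1185 and 1537 FPKM in non-tumor and 1424, 2393 and 1426 FPKM in OSA tumor. T3 was again the highest sample, and the other 2 tumors lay within the non-tumor range. At the other end among single rows, after *RPSA* and *RPLP0*, *RPS27A*, which encodes ubiquitin fused to a ribosomal protein, ran from 325 FPKM in T1 to 4892 FPKM in T3 (SD 1.29), with 568, 1380, 1414 and 654 FPKM in non-tumor and 1915 FPKM in T10.

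The 12 tested members that were not highest in T3 peaked in N1 (5), T10 (4), N8 (2) or N3 (1). *RPS15*, of the small subunit, was abundant and ordered the samples in another way. It stood at 2463, 596, 1212 and 578 FPKM in N1, N3, N8 and N9 and at 1981, 1759 and 196 FPKM in T1, T3 and T10, so that T10 was lowest and T1 above T3. *RPS15A* ran the other way, with 67.3 FPKM in T1 against 606 and 668 FPKM in T3 and T10. *RPL8* and *RPL13* peaked in N1, at 2461 and 556 FPKM, with T3 second at 2321 and 470 FPKM.

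The position of the rows bore on what they measured. For each row the 6 nearest named genes on either side were compared with the 15 on either side of the same symbol in the RefSeq table (assembly UU_Cfam_GSD_1.0), and a row with at least 3 in common was taken to keep its neighbours. 1 row, of *RPS24* on an unplaced contig, had no named neighbour to compare and was counted with the rows that do not keep theirs. The *RPS24* row on chromosome 8 had only 6 to compare. The condition held for 49 rows, with a median interval of 4582 bases, of which 47 were tested and none was listed at 0 throughout. The other 33 rows had a median interval of 610 bases, 27 were under 1300 bases, 14 were tested, and all 10 rows listed at 0 in every sample were among them. These were the single rows of *RPL22*, *RPL30*, *RPL35A*, *RPL38*, *RPLP1*, *RPS2* and *RPS25* and 1 row each of *RPL7*, *RPL31* and *RPS24*. None of these rows was found to keep the neighbours of its gene, so a listed 0 is not read as a lack of expression. The symbol *RPL36A* could not be looked up.

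Rows away from the known neighbourhood also held high levels. Of the 27 short ones, 7 had a mean of at least 10 FPKM and 3 of at least 1000 FPKM, and of the 6 longer ones 5 and 2. T3 was highest in 13 of their 14 tested rows and in 36 of the 47 tested rows that keep their neighbours. A stricter set of 23 tested rows, alone in their interval, with 1 row per symbol and the known neighbours, had T3 highest in 17, a median log2 fold change of 0.13 and no call, *RPSA* being left out for its shared interval. These counts are on the deposited FPKM scale.

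For 13 symbols the table held more than 1 row, 32 rows in all, and levels of such rows are uncertain because near-identical copies can split fragments. *RPL14*, of the large subunit, was the plainest case. The row on chromosome 23, which keeps its neighbours over 3636 bases, stood at 1.37, 0.970, 1.18 and 0.172 FPKM in N1, N3, N8 and N9 and at 0.675, 1.65 and 3.04 FPKM in T1, T3 and T10. The row on chromosome 3, of 633 bases, stood at 1791, 1340, 784 and 613 FPKM and at 707, 3978 and 1955 FPKM.

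The *RPL32* rows were as far apart, at 299.5 to 1595 FPKM on chromosome 20 and at 0 to 2.46 FPKM on chromosome 25, and the *RPL4* row on chromosome 27 stayed at 0.226 to 1.502 FPKM.

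*RPL3*, of the peptidyl transferase center, had rows on chromosomes 10 and 12 whose levels kept a near-constant ratio of 0.201 to 0.275 in the 7 samples. On chromosome 10 it stood at 120, 125, 120 and 28.6 FPKM in non-tumor and at 70.3, 295 and 111 FPKM in OSA tumor. N9 was the low non-tumor sample in both rows. The ratios of the *RPL27* rows (chromosome 34 to 9) ran from 0.142 to 0.242, those of *RPL12* (1 to 9) from 0.254 to 0.873, and those of *RPS27* (7 to X) from 0.146 to 0.544.

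*RPS24* had 4 rows. The row on chromosome 21, in an interval of 500094 bases, held 1760, 1799, 1277 and 1519 FPKM in non-tumor and 780, 6198 and 1840 FPKM in OSA tumor. The row on chromosome 4, the one with the known neighbours, stood at 4.73, 70.7, 61.4 and 1.53 FPKM in N1, N3, N8 and N9 and at 2.89, 24.1 and 6.20 FPKM in T1, T3 and T10. The ratio of these 2 rows differed 47.6-fold between samples, and that row was high in N3, N8 and T3. The fourth row was listed at 0 throughout. *RPL21* on chromosome 25 was at 12.7 to 19.8 FPKM in non-tumor and at 4.03, 33.2 and 7.19 FPKM in T1, T3 and T10. Its log2 fold change was -0.59, and without T3 it was -1.40 and past the threshold, while without T1 it was -0.02.

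*RPL31*, of the large subunit, had 4 rows, of which only that on chromosome 32 was tested. This row, at chr32:29400201-29400593 (CanFam3.1) and without the neighbours of *RPL31* in RefSeq, stood at 85.1, 920, 1.01 and 0 FPKM in the non-tumor samples (N1, N3, N8, N9) and at 19.7, 1904 and 0.401 FPKM in the tumors (T1, T3, T10). All 4 samples numbered 1 or 3 were high, in either group, and the 3 others were near or at 0. Of all 13507 tested genes 93 were at least 10 times higher in every sample numbered 1 or 3 than in every other, and this was the only member among them. The log2 fold change between the groups was 0.93 (SE 2.76), which says nothing on direction.

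Summed over the rows of a symbol, 52 symbols were tested. The median log2 fold change of the members was then 0.26, and *RPSA* remained the 1 call.

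Some members have a feature that the rule did not use: 16 of their 83 intervals also list snoRNA rows, 32 in all. Of all intervals of the table, 2.71% list a snoRNA row, counted whether or not they hold another gene. The snoRNAs in the member intervals guide the modification of ribosomal RNA. Of the 32 rows, 18 were listed at 0 in all 7 samples and 2 were above 0 in every sample, so most could not be compared. In all, 24 member intervals hold more than 1 listed gene.

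Some other genes of translation were also highest in T3. Outside the rule, *GNB2L1*, which encodes the small subunit scaffold RACK1, was at 669, 764, 1072 and 848 FPKM in N1, N3, N8 and N9 and at 529, 2607 and 673 FPKM in T1, T3 and T10. T3 was far above the other samples and T1 the lowest, and the gene did not pass the threshold.

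Of 20 tested rows of elongation factors and other genes with a 5′ terminal oligopyrimidine tract, T3 was highest in 13, with a median log2 fold change of 0.19. *EEF1A1*, the factor that brings aminoacyl-tRNA to the ribosome, was at 76.3, 122, 58.0 and 27.4 FPKM in its highest row in non-tumor and at 32.04, 211 and 37.8 FPKM in OSA tumor. *EEF2*, the translocation factor, was the 1 call of the list and went the other way, where 3.58% of all tested genes passed as lower. It was at 381, 366, 546 and 794 FPKM in N1, N3, N8 and N9 and at 297, 231 and 93.9 FPKM in T1, T3 and T10, without overlap. Its log2 fold change was -1.41 (SE 0.62, unadjusted limma p = 0.0470, adjusted p = 0.693, exact permutation p = 0.0571). The call was lost without N3, N8, N9, T3 or T10 and with each of the 3 other scalings. It was also lost with the sample number as a random or fixed block.

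Of 36 tested genes of ribosome assembly and ribosomal RNA transcription, 1 passed as higher (3.28% of all tested genes) and none as lower (3.58%). Their median log2 fold change was 0.15, and T3 was highest in 11 (17.5% of all tested genes). The call was *BRIX1*, a factor of large subunit assembly, at 16.7, 9.99, 6.18 and 8.20 FPKM in N1, N3, N8 and N9 and at 12.1, 46.2 and 31.9 FPKM in T1, T3 and T10. T1 fell within the non-tumor range. The log2 fold change was 1.36 (SE 0.57, unadjusted limma p = 0.0402, adjusted p = 0.693, exact permutation p = 0.114). The call was lost without N3, N8, N9, T3 or T10. It was also lost with the samples rescaled to the same sum and with the sample number as a random or fixed block.

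The regulators of ribosomal protein mRNAs did not pass the threshold. None of 12 genes of mTORC1 and LARP1 passed in either direction (3.28% of all tested genes passed as higher and 3.58% as lower). Their median log2 fold change was -0.76, and none was highest in T3 (17.5% of all tested genes). None of 7 genes of the MYC family passed. *MYC*, a transcription factor known to drive ribosomal protein genes, was at 119, 28.1, 13.7 and 6.25 FPKM in N1, N3, N8 and N9 and at 62.5, 13.2 and 12.03 FPKM in T1, T3 and T10. T3, the sample with the highest level of the members, was among the lower samples for *MYC*. *MYCN*, a relative of *MYC*, was in contrast highest in T3, at 6.41 FPKM against 0 to 2.02 FPKM in the other samples. Summed FPKM of 9 cell cycle markers was 75.03 to 527 in non-tumor and 205, 387 and 586 in T1, T3 and T10, so T3 stood between the other tumors.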

How the data were processed

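RNA of 4 non-tumor and 3 OSA tumor samples of dogs was analysed from gene levels. The authors used Trim Galore to trim reads and Tophat2 to place them on CanFam3.1 with Ensembl annotation, and computed the deposited FPKM per gene and sample with Cuffdiff; exact versions, the handling of fragments matching several copies and the scaling between libraries are not given in the sources used here. A second deposited table of the authors holds their group FPKM, log2 fold changes, test statistic (a score), p-values and q-values; only its intervals were used, with 1 added to each start. All 7 sample columns were used and 0 left out.

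Genes averaging 1 FPKM or more were fitted on the log2(FPKM + 1) scale by limma 3.58.1 (R 4.3.3) with a mean-variance trend and no block. A gene passed at a log2 fold change of 1 or more in size and an unadjusted p below 0.05; p-values were adjusted by Benjamini-Hochberg over 13507 genes. The fit was tested on simulated data. Exact permutation tests doubled the smaller tail over the 35 splits (Python 3.11.15, numpy 2.4.6, pandas 2.3.3), and figures used matplotlib 3.10.9. Gene neighbours came from RefSeq names.

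Members, gene lists and tests were chosen with earlier results of these data known. Named were members past the threshold, members with set roles, rows of symbols with several rows, members at 0 in some samples and at least 10 FPKM in another, the extremes of level and spread, and non-overlapping groups; *RPL4*, *RPS15*, *RPS15A*, *RPL8* and *RPL13* were also picked after their values were seen. Alternatives were pseudocounts of 0.1 and 0.01, no filter, at least 1 FPKM in 3 samples, 3 scalings, zeros as missing, no trend, sample weights, the sample number as a block, and each sample left out; summing the rows of a symbol and the count of members highest in T3 were added after seeing the data. Some genes are counted here but not reported by name.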

Additional observations from a re-analysis of the deposited data

Results flagged for a closer look

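Among the 62 tested members, 6 had a non-tumor sample far from the other 3 of its group. Such a gap arises by chance in about 1 in 20 independent groups. The members were measured in the same samples and vary together, so their count cannot be set against that rate. In 5 of the 6 the sample was N9 and the value low: 1.07 FPKM for *RPSA*, 34.4 for *RPL22L1*, 28.6 for the *RPL3* row on chromosome 10, 182 for *RPL28*, and 0.283 for the *RPL27A* row on chromosome 21. N9 was also the lowest sample for 30 of the 62 members. In the sixth the sample was N8 and the value high, 20.9 FPKM for *RPLP0*. Tumors were not examined in this way, as the group holds 3 samples.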

How the results depend on the processing

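*RPSA* kept its direction in all alternatives and passed the threshold in all but the fixed block; its log2 fold change ran from 2.07 to 3.92 with 1 sample left out. With the sample number as a block, the fixed fit, which kept only N1, N3, T1 and T3, left 2.70 for *RPSA*. It left 0 members and 241 genes past the threshold, and the random block, on all samples, changed no call of a member. Deviations of same-numbered samples correlated at 0.42 (N1 and T1) and 0.21 (N3 and T3). All differently numbered pairs were lower, from -0.27 (N1 and T3) to 0.14 (N9 and T10). As only 2 numbers are shared, the samples were treated as sharing a number alone, and the main fit has no block. Genes past the threshold, 926 in all, were 1857 with sample weights and 319 to 1997 with 1 sample left out. Members past it as higher were 1 to 2 and as lower 0 to 1 with 1 sample left out: *RPL26* (2.09) was added without T1, *RPL4* (2.32) without T10 and *RPL21* (-1.40) without T3. The median log2 fold change of the members ran from -0.28 to 0.62 with 1 sample left out. Members highest in T3 fell from 50 to 27 after quantile normalization. With 1 sample left out, *RPL27A* on chromosome 21 ran from -0.037 (without T3) to 1.68, and *RPL31* on chromosome 32 from -1.89 (without T3) to 3.31, also below 0 without N8 (-0.17) or N9 (-0.51). *RPL31* reversed with zeros as missing (-0.51) and under the fixed block (-0.50). *EEF2* lost its call with the 3 scalings (-1.21, -1.38 and -1.20) and both blocks, and *BRIX1* with the same sum (1.52) and both blocks. The cause of these changes was not tested. Without counts, levels near 1 FPKM cannot be given an error from depth, and the size of *RPSA* in OSA tumor rests on 3 samples.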
